A study of Mus musculus with 2 samples.

Results

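The 8 genes described here encode the parts of the A-type potassium channel complex. They were chosen by symbol from the gene rows of 2 mouse single-nucleus libraries, 8 of 32285 genes in each, and all 8 had UMIs in both libraries. Kcnd2 and Kcnd3 encode the Kv4.2 and Kv4.3 pore subunits. Kcnip1, Kcnip2, Kcnip3 and Kcnip4 encode the KChIPs, small calcium-binding proteins of the neuronal calcium sensor family that bind the inner face of Kv4 channels. Dpp6 and Dpp10 encode single-pass membrane proteins related to dipeptidyl peptidases that lack peptidase activity.

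Kv4 channels open at voltages below the spike threshold, inactivate quickly and carry the somatodendritic A-type current of many neurons. In CA1 pyramidal cells this current is known to limit the spread of action potentials back into the dendrites. KChIPs and DPP proteins bind the pore subunits, raise their number at the membrane and set how fast the current inactivates and recovers.

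Both libraries came from Slide-tags, in which nuclei in a frozen section take up spatial barcodes before droplet-based single-nucleus RNA sequencing. The adult library was made from a coronal section of the hippocampus of a C57BL/6J mouse aged 56 days, and the E14 library from a sagittal section of the brain of a C57BL/6J embryo at embryonic day 14, bought as a frozen whole embryo. The labels give no mutant allele and no treatment for either, and the spatial positions were not analysed here. With 1 library per group there was no replicate and no test, so every interval below is a 95% interval that covers counting error only. Age, brain region, cell makeup and software version differed together between the libraries and cannot be told apart.

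The adult library held 1661 barcodes, of which 1609 were kept as nuclei, with 15346746 UMIs in all and a median of 6607 per nucleus. The E14 library held 9037 barcodes, of which 9036 were kept, with 58923882 UMIs and a median of 4204. Kept nuclei of the libraries shared 1 barcode. Nuclei were put into classes, called "-like", by the number of their marker genes above the library's own level, and classes of at least 20 nuclei are described. In the adult library these were 301 dentate granule-like, 163 CA1-like, 32 CA3-like, 81 thalamic-like and 32 inhibitory-like nuclei, and 254 oligodendrocyte-like, 153 astrocyte-like, 51 endothelial-like, 43 microglia-like and 30 oligodendrocyte precursor-like nuclei. Hippocampal classes were therefore present as labelled, together with thalamic-like nuclei. Another 458 adult nuclei (28.5%) and 7059 E14 nuclei (78.1%) met no class and enter only the values over all nuclei. The E14 classes of neurons with the most nuclei were 440 thalamic-like, 199 cortical excitatory-like, 187 forebrain GABAergic-like and 147 Lhx6 interneuron-like nuclei, beside 273 radial glia-like progenitors.

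Levels are class sums: the UMIs of a gene in all nuclei of the class, divided by their total UMIs and multiplied by 1000000 (CPM). Intronic reads were counted, so long genes collect more UMIs, and genes are compared with each other only after division by gene length. On GRCm38 the genes span 24.2 kb for Kcnip2 (ENSMUSG00000025221, chr19:45791839-45816061, minus strand) and 65.6 kb for Kcnip3 (ENSMUSG00000079056, chr2:127456498-127522094, minus strand). Kcnd3 (ENSMUSG00000040896, chr3:105452330-105674002, plus strand) spans 222 kb, Kcnip1 (ENSMUSG00000053519, chr11:33629339-33993152, minus strand) 364 kb and Kcnd2 (ENSMUSG00000060882, chr6:21215503-21729805, plus strand) 514 kb. Dpp10 (ENSMUSG00000036815, chr1:123321471-124045559, minus strand) covers 724 kb, Dpp6 (ENSMUSG00000061576, chr5:26817203-27727505, plus strand) 910 kb and Kcnip4 (ENSMUSG00000029088, chr5:48389502-49524907, minus strand) 1135 kb.

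The KChIP genes showed the widest differences between libraries, and the sequences before a RefSeq start of the 3 that differed most are shown, taking the start farthest upstream among those in the RefSeq table. Each runs 5′ to 3′ over the 250 bases before that start on GRCm38.p6, all on the minus strand: Kcnip1 at chr11:33993194-33993443, Kcnip2 at chr19:45816064-45816313 and Kcnip4 at chr5:49285660-49285909. Capitals mark CG dinucleotides, a motif that reads the same on both strands.
Kcnip1: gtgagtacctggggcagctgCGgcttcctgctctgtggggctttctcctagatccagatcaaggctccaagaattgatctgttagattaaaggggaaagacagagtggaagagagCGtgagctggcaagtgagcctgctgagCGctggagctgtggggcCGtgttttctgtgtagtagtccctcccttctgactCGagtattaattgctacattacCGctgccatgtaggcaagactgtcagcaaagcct
Kcnip2: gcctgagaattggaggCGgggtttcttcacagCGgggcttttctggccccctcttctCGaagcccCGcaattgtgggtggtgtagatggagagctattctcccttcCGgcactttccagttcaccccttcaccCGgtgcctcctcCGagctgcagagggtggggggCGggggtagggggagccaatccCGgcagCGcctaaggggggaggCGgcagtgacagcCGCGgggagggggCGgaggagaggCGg
Kcnip4: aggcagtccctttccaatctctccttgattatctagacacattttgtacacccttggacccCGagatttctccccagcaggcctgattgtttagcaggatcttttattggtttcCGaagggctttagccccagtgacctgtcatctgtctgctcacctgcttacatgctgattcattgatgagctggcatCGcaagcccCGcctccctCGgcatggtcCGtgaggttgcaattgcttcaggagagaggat
The Kcnip2 stretch held 15 CG dinucleotides and the Kcnip1 and Kcnip4 stretches 6 each, against a median of 6 over all 32851 annotated starts, of which 92.1% held at least 1. In the GENCODE annotation used for the gene spans, Kcnip4 extends farther upstream, so its stretch lies within that gene. All 8 genes had an entry, 15 starts in all, and Kcnip1 has 3 starts and Kcnip4 has 2. Which start was used in these nuclei was not measured.

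**Figure D1:**
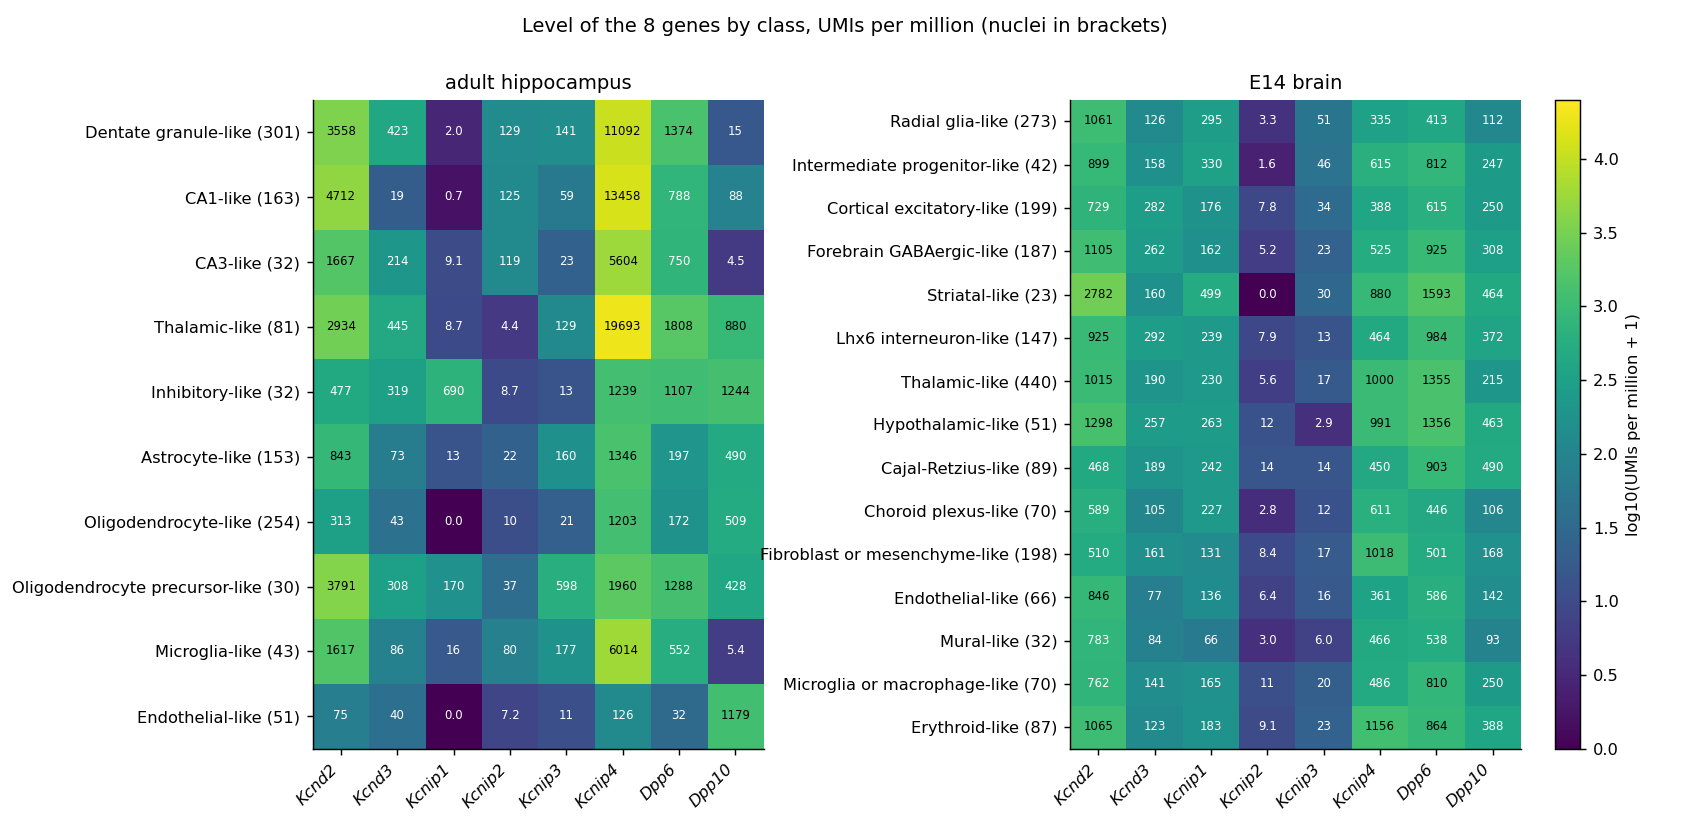
Level of each gene (columns) in each class of at least 20 nuclei (rows), as CPM printed in the cells and as log10(CPM + 1) by colour, for the adult library on the left and the E14 library on the right. Kcnip4 reached 19693 CPM in adult thalamic-like nuclei, while Kcnip1 was at 690 in inhibitory-like nuclei and at 2.00 in dentate granule-like nuclei.

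Of the pore genes, Kcnd2 was high in adult excitatory neurons and in oligodendrocyte precursors. Its level was 4712 CPM (interval 4635 to 4790) in CA1-like nuclei, 3791 (3536 to 4059) in oligodendrocyte precursor-like, 3558 (3500 to 3617) in dentate granule-like, 2934 (2844 to 3026) in thalamic-like and 1667 (1570 to 1768) in CA3-like nuclei. Of these intervals, only those of oligodendrocyte precursor-like and dentate granule-like nuclei overlapped. Microglia-like nuclei summed to 1617 CPM, but their median nucleus had 0 Kcnd2 UMIs. Inhibitory-like nuclei had 477 CPM (416 to 545). To compare shares of nuclei at equal depth, each nucleus was thinned to 1000 UMIs. Nuclei with fewer were left out, 203 of 1609 adult and 1039 of 9036 E14 nuclei, and shares are over those that remained. Among the described classes this removed most from the erythroid-like (34 of 87) and astrocyte-like (21 of 153) nuclei. A Kcnd2 UMI was then seen in 93.3% of oligodendrocyte precursor-like nuclei (77.9 to 99.2%), in 92.5% of CA1-like, 91.5% of dentate granule-like and 44.8% of inhibitory-like nuclei. Microglia-like and endothelial-like nuclei, taken as classes that should lack these channels, gave 16.7% (6.97 to 31.4%) and 4.26% (0.520 to 14.5%), at median depths of 2288 and 3397 UMIs before thinning, against 5708 for oligodendrocyte precursor-like nuclei. They serve below as reference shares, and where UMIs in them came from was not tested.

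Kcnd3, the other pore gene, split the excitatory classes of the hippocampus. It was at 423 CPM (403 to 444) in dentate granule-like and 445 (410 to 482) in thalamic-like nuclei, whose intervals overlapped, and at 18.9 (14.3 to 24.5) in CA1-like nuclei. Inhibitory-like nuclei had 319, oligodendrocyte precursor-like 308 and CA3-like 214 CPM. The median nucleus had 3.80 Kcnd3 UMIs per 10000 in the dentate granule-like class, 3.93 in the thalamic-like class and 0 in the CA1-like class, in which the highest nucleus reached 6.28. Thinned shares were 32.7% of dentate granule-like and 1.89% of CA1-like nuclei, the latter not above the 4.76% of microglia-like nuclei (0.582 to 16.2%). Per 100 kb of gene, Kcnd2 stood at 916 and Kcnd3 at 8.54 CPM in CA1-like nuclei, and at 692 and 191 in dentate granule-like nuclei.

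Kcnip4 was abundant in all described adult excitatory classes. Thalamic-like nuclei had 19693 CPM (19459 to 19929), CA1-like 13458 (13328 to 13590), dentate granule-like 11092 (10989 to 11196) and CA3-like 5604 (5425 to 5787), and none of these intervals overlapped. The median nucleus of these classes had 180, 115, 107 and 56.7 Kcnip4 UMIs per 10000. Per 100 kb of gene, the dentate granule-like level was 977 for Kcnip4, 692 for Kcnd2, 534 for Kcnip2, 215 for Kcnip3 and 0.550 for Kcnip1. In CA3-like nuclei Kcnip4 (494) and Kcnip2 (492) differed by less than their counting error on this scale. The scale uses the whole GENCODE span, and both RefSeq starts of Kcnip4 lie within it. Which start was used was not measured, so the Kcnip4 value per 100 kb depends on the span chosen.

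Outside the excitatory classes the Kcnip4 sums rested on few nuclei. Microglia-like nuclei summed to 6014 CPM with a median nucleus of 0, and 1 nucleus gave 28.7% of these UMIs. In the same class the 8 dentate granule markers summed to 1141 CPM, 31.2% of their sum in dentate granule-like nuclei, with none at 0 and Stxbp6 the most abundant at 284. Their part in the Kcnip4 level was not tested. Inhibitory-like nuclei had 1239 Kcnip4 CPM, of which 1 nucleus of 32 gave 51.3%. Their thinned share of 34.5% (17.9 to 54.3%) stood beside 33.3% (19.6 to 49.5%) in microglia-like and 8.51% (2.37 to 20.4%) in endothelial-like nuclei. The astrocyte-like (22.7%) and oligodendrocyte-like (11.6%) shares lay between these reference shares, and Kcnip4 expression in these classes was not told apart from them.

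Kcnip2 was highest in the hippocampal excitatory classes. Its levels were 129 CPM (118 to 141) in dentate granule-like, 125 (113 to 139) in CA1-like and 119 (94.4 to 149) in CA3-like nuclei, with overlapping intervals. Microglia-like nuclei came next at 80.3 (45 to 132) on 15 UMIs in 6 of 43 nuclei, an interval that overlapped all 3. Thalamic-like nuclei, in which Kcnip4 was highest, had 4.36 (1.60 to 9.5) and inhibitory-like nuclei 8.68 (2.37 to 22.2). A thinned share of 11.9% of dentate granule-like nuclei stood against 0 of 76 thalamic-like nuclei, which allows up to 4.74%, and against 2.38% (0.0603 to 12.6%) of microglia-like nuclei.

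Among the adult classes, Kcnip1 was highest in inhibitory-like nuclei. It reached 690 CPM (616 to 770) there, in 24 of 32 nuclei, with a median of 4.04 and a highest value of 22.8 UMIs per 10000. Dentate granule-like nuclei had 8 Kcnip1 UMIs and CA1-like nuclei 2 in all. Oligodendrocyte precursor-like nuclei were next at 170 (120 to 235), with a UMI in 18 of 30 nuclei. Oligodendrocyte-like and endothelial-like nuclei had 0 UMIs. After thinning, 48.3% of inhibitory-like and 13.3% of oligodendrocyte precursor-like nuclei held a UMI, against 2.38% of microglia-like nuclei.

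Kcnip3 was highest in oligodendrocyte precursor-like nuclei at 598 CPM (500 to 710), in 22 of 30 nuclei. Microglia-like (177), astrocyte-like (160), dentate granule-like (141) and thalamic-like nuclei (129) followed, and each of these intervals overlapped the next. CA1-like nuclei had 58.8, CA3-like 22.6 and inhibitory-like 13 CPM. The thinned share was 46.7% (28.3 to 65.7%) in oligodendrocyte precursor-like and 16.7% (6.97 to 31.4%) in microglia-like nuclei, and the astrocyte-like share of 14.4% was below the latter. The 8 dentate granule markers summed to 929 CPM in oligodendrocyte precursor-like nuclei, 25.4% of their sum in dentate granule-like nuclei, with Stxbp6 the most abundant at 322. In astrocyte-like nuclei they summed to 1071 CPM (29.3%), of which Glis3 gave 490, and none was at 0 in either class. Their part in the Kcnip3 level was not tested.

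Of the DPP genes, Dpp6 was spread over all described adult neuronal classes. Its levels were 1808 CPM (1738 to 1881) in thalamic-like, 1374 (1338 to 1411) in dentate granule-like, 1288 (1142 to 1448) in oligodendrocyte precursor-like, 1107 (1013 to 1207) in inhibitory-like, 788 in CA1-like and 750 in CA3-like nuclei. The interval of oligodendrocyte precursor-like nuclei overlapped those of dentate granule-like and inhibitory-like nuclei, and the CA1-like and CA3-like intervals overlapped each other. In oligodendrocyte precursor-like nuclei 1 nucleus of 30 gave 37.1% of the UMIs, and the level was 976 without it. Thinned shares ran from 37.5% of CA3-like to 71.4% of dentate granule-like nuclei, against 11.9% of microglia-like nuclei.

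Dpp10 was distributed differently from Dpp6. Inhibitory-like nuclei had 1244 CPM (1144 to 1350), thalamic-like 880 (831 to 931) and oligodendrocyte precursor-like 428 (345 to 524), with medians of 10.3, 6.51 and 4.98 UMIs per 10000. Dentate granule-like nuclei had 15.0 and CA3-like 4.53 CPM. The 8 adult nuclei with cortical excitatory markers, too few to be described as a class, held 1838 Dpp10 UMIs, 13380 CPM, with a median of 125 per 10000, and 6 of them had a UMI. In a clustering made without the 8 genes, the corresponding cluster of 30 nuclei had 11218 CPM. Dpp6 was at 328 CPM in the 8 nuclei (126 without the nucleus with the most UMIs). In that cluster it was at 227 CPM with a median of 0.841 per 10000. For Kcnip4 the median was 4.22 per 10000 in the 8 nuclei and 7.99 in the cluster.

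Several other Dpp10 sums came from a single nucleus each. All 328 UMIs of the endothelial-like class (1179 CPM) were in 1 of 51 nuclei. In astrocyte-like nuclei 1 nucleus gave 97.4% of the UMIs, and the level fell from 490 to 13.3 without it. In CA1-like nuclei 1 nucleus gave 91.3%, and the level fell from 88.0 to 7.73. In oligodendrocyte-like nuclei 1 nucleus gave 73.7%, and the level fell from 509 to 139. Medians of these 4 classes were 0.

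**Figure D2:**
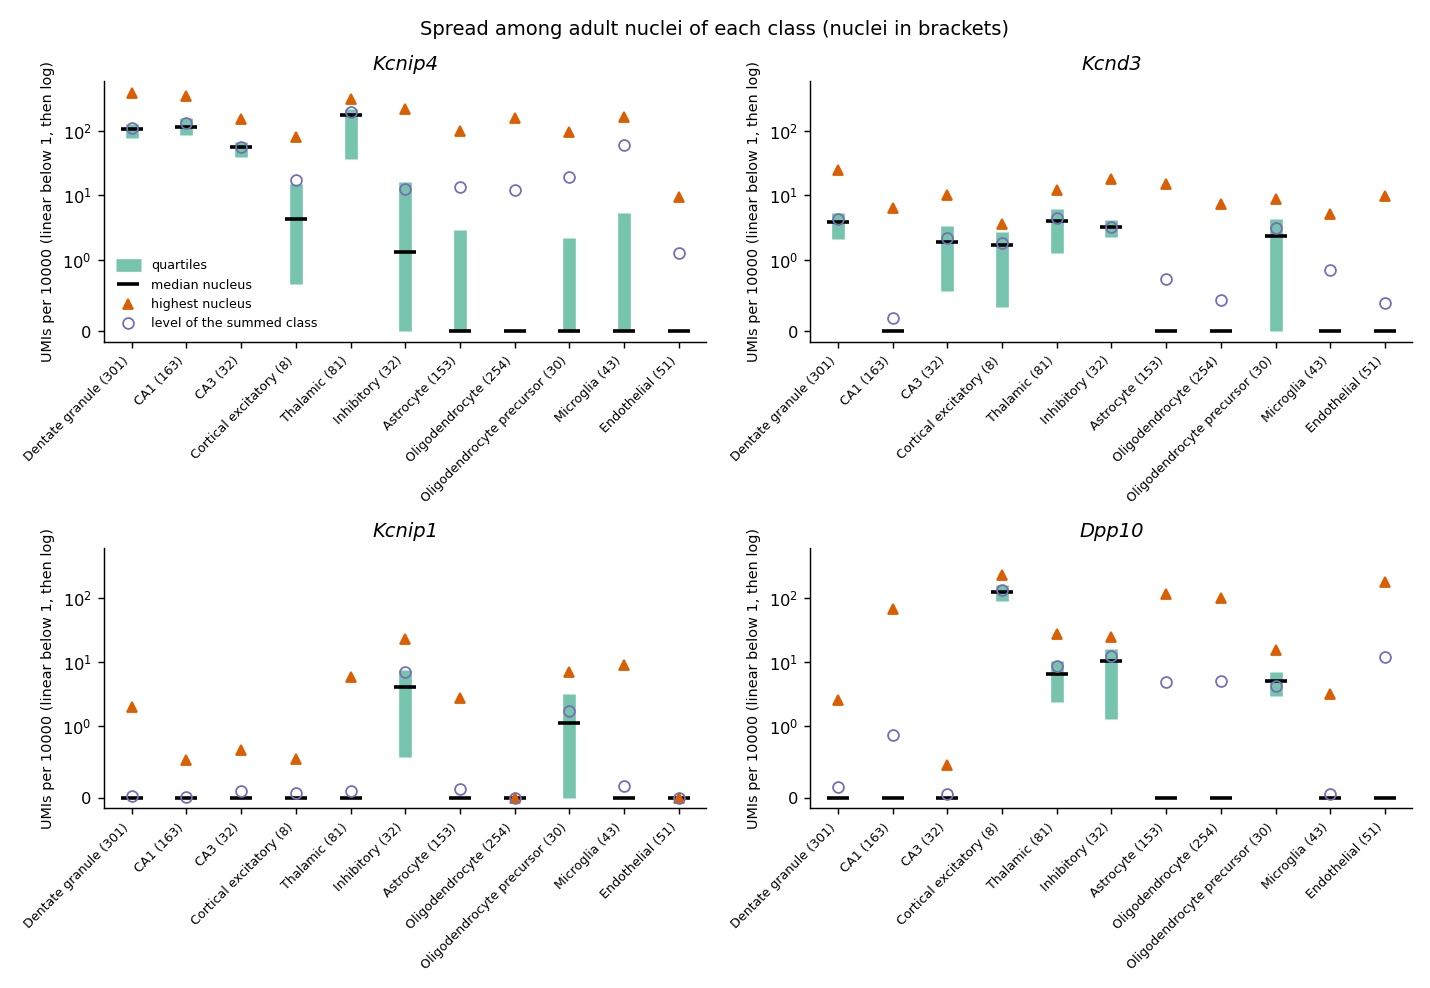
Spread of 4 genes among the nuclei of each adult class, in UMIs per 10000 on an axis that is linear below 1 and logarithmic above. Bars span the quartiles, black ticks are the median nucleus, triangles the highest nucleus and open circles the level of the summed class. Dpp10 has a median of 10.3 in inhibitory-like nuclei and of 0 in endothelial-like nuclei, whose circle comes from 1 nucleus.

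In the E14 library Kcnd2 was highest in the 23 striatal-like nuclei, at 2782 CPM (2535 to 3046), and lay between 468 and 1298 in the other 14 classes. This class was weakly held: 20 of its nuclei had the minimum of 3 markers, 3 nuclei were left at a minimum of 4, and no cluster made without the 8 genes took its name. The same held for hypothalamic-like nuclei, 43 of 51 at the minimum and 8 left, and for erythroid-like nuclei, 60 of 87 at the minimum and 27 left. Thinned shares were 72.7% of striatal-like, 56.9% of hypothalamic-like and 44.9% of thalamic-like nuclei, against 18.6% (10.3 to 29.7%) of microglia or macrophage-like and 39.6% (26.5 to 54.0%) of erythroid-like nuclei. The latter had a median depth of 1704 UMIs before thinning, and with 53 nuclei left after it they are a weak reference. Kcnd3 was highest in Lhx6 interneuron-like (292) and cortical excitatory-like nuclei (282), with overlapping intervals and thinned shares of 26.8% and 18.6%, against 4.29% of microglia or macrophage-like and 20.8% of erythroid-like nuclei.

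Kcnip1 was found in all 15 E14 classes, from 65.7 CPM in mural-like to 499 (398 to 618) in striatal-like nuclei. Its thinned share was 36.4% in striatal-like and 16.5% in thalamic-like nuclei, and 10.0% (4.12 to 19.5%) in microglia or macrophage-like nuclei, whose interval overlapped that of every neuronal class. Endothelial-like nuclei had a lower share, 3.17%. By level, striatal-like nuclei, intermediate progenitor-like nuclei at 330 (287 to 378) and radial glia-like nuclei at 295 (274 to 317) were above the 165 CPM (132 to 203) of microglia or macrophage-like nuclei. Hypothalamic-like (263), Cajal-Retzius-like (242), Lhx6 interneuron-like (239) and thalamic-like nuclei (230) were also above without overlap, while cortical excitatory-like nuclei at 176 (160 to 193) and forebrain GABAergic-like nuclei at 162 (143 to 184) overlapped them. The highest Kcnip4 levels were in erythroid-like (1156 CPM, 46.2% of the UMIs in 1 nucleus), fibroblast or mesenchyme-like (1018), thalamic-like (1000) and hypothalamic-like nuclei (991), each interval overlapping the next. Among neuronal classes, Kcnip4 exceeded the share of microglia or macrophage-like nuclei (17.1%, 9.18 to 28.0%) without overlap only in thalamic-like nuclei, at 39.7% (35.0 to 44.6%). Erythroid-like and fibroblast or mesenchyme-like nuclei had 26.4% and 34.1%. Cortical excitatory-like nuclei, at 16.1%, were below all of these. Kcnip2 had no more than 13.9 CPM in any class. Kcnip3 was highest in radial glia-like nuclei at 50.8 (42.2 to 60.7), overlapping intermediate progenitor-like nuclei at 45.8 (30.7 to 65.8). Its thinned share was 3.45% in radial glia-like and 5.03% in cortical excitatory-like nuclei, against 2.86% of microglia or macrophage-like nuclei.

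Dpp6 was highest in striatal-like (1593), hypothalamic-like (1356) and thalamic-like nuclei (1355 CPM), with thinned shares of 68.2%, 68.6% and 64.5% against 27.1% of microglia or macrophage-like and 37.7% of erythroid-like nuclei. Dpp10 levels in Cajal-Retzius-like (490), striatal-like (464) and hypothalamic-like nuclei (463) had overlapping intervals. The Cajal-Retzius-like share was 27.3% (18.3 to 37.8%), against 7.14% (2.36 to 15.9%) of microglia or macrophage-like and 20.8% (10.8 to 34.1%) of erythroid-like nuclei. In E14 endothelial-like nuclei the thinned shares were 20.6% for Kcnd2, 1.59% for Kcnd3, 19.0% for Kcnip4 and Dpp6, and 3.17% for Dpp10.

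**Figure D3:**
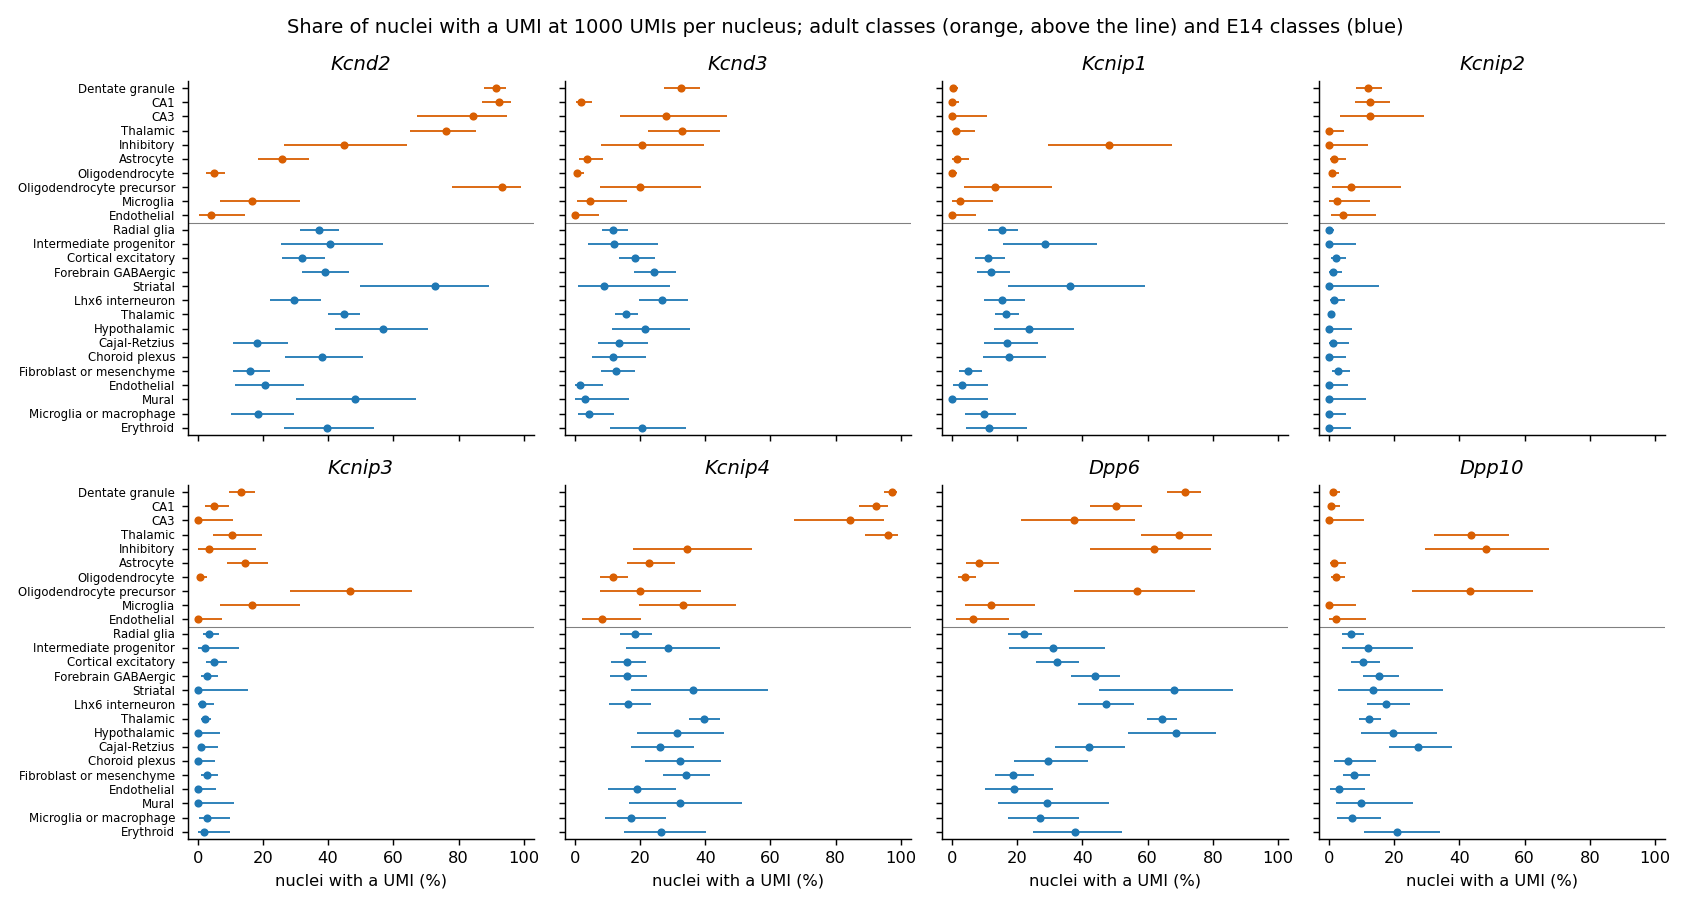
Share of nuclei with a UMI of each gene after thinning each nucleus to 1000 UMIs, in percent with exact binomial intervals, for adult classes (orange, above the line) and E14 classes (blue). Kcnip4 was seen in 97.3% of adult dentate granule-like nuclei and Kcnip1 in 48.3% of inhibitory-like nuclei, against 33.3% and 2.38% of microglia-like nuclei.

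The adult and E14 libraries were then compared over all nuclei. Relative to E14, 4 of the 8 genes were at least 2-fold higher in the adult library, beside 17.2% of all 20842 genes compared, and 1 was at least 2-fold lower, beside 23.8%. The higher genes were Kcnip4 (9580 against 711 CPM, 13.5-fold, interval 13.3 to 13.6), Kcnip2 (87.1 against 6.98, 12.5-fold, 11.2 to 14), Kcnip3 (109 against 23.2, 4.69-fold) and Kcnd2 (2927 against 1048, 2.79-fold). The lower gene was Kcnip1, at 29.3 against 255, a ratio of 0.115 (0.104 to 0.126). With each nucleus weighted alike, Kcnip4 was 8.32-fold and Kcnd2 1.86-fold higher, the latter below the limit. Kcnd3 (1.23-fold), Dpp6 (1.02-fold) and Dpp10 (1.85-fold) were below 2-fold. Across the settings the Dpp10 log2 ratio ran from 0.24 to 1.05, the latter above the 2-fold limit. The median log2 ratio was 1.18 over the 8 genes and -0.17 over all genes compared. In bulk sums of this kind, fewer nuclei of a type and less RNA per nucleus cannot be told apart.

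Restricting both libraries to neuronal classes gave the same 5 calls. Kcnip4 was 18.4-fold (17.9 to 18.9) and Kcnip2 13.8-fold (10.8 to 18.0) higher, Kcnip3 4.72-fold and Kcnd2 3.70-fold higher, and Kcnip1 had a ratio of 0.169 (0.151 to 0.190). Shares of all genes called were 17.7% higher and 22.3% lower. Dpp10 was 1.37-fold higher, and its log2 ratio ran from 0.30 to 1.44 across the settings, the latter above the 2-fold limit. The adult neurons include the 8 nuclei with cortical excitatory markers, at 13380 Dpp10 CPM against 409 for all adult neurons and 298 for E14 neurons. No setting left this class out, so the range does not show the Dpp10 ratio without it.

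Next, 3 pairs of classes were compared, and these comparisons share libraries but no nuclei. Between thalamic-like nuclei of both ages, 5 genes were higher (16.0% of all genes) and 1 was lower (22.7%). Kcnip4 rose from 1000 to 19693 CPM, 19.7-fold (18.9 to 20.5), Kcnip3 7.79-fold (5.57 to 11.1), Dpp10 4.09-fold (3.70 to 4.53), Kcnd2 2.89-fold and Kcnd3 2.34-fold. Kcnip1 went from 612 UMIs in 440 nuclei to 12 UMIs in 81 nuclei, 10 of the 12 in a single nucleus, a ratio of 0.0380 (0.0195 to 0.0668) that became 0.00696 without the nucleus with the most UMIs in each group. Kcnip2 rested on 6 against 15 UMIs and had a ratio of 0.774 (0.246 to 2.11).

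Between hippocampal excitatory nuclei (dentate granule-like, CA1-like and CA3-like together) and E14 cortical excitatory-like nuclei, 4 genes were higher (20.4% of all genes) and 2 lower (20.1%). Kcnip4 was 29.8-fold (27.9 to 31.7), Kcnip2 16.2-fold (10.4 to 26.6), Kcnd2 5.28-fold and Kcnip3 2.89-fold higher. Kcnip1 was 84.4-fold lower (51.4 to 149), at 2.08 against 176 CPM, and Dpp10 5.84-fold lower (5.11 to 6.70), at 42.7 against 250. A single CA1-like nucleus held 242 of the 328 adult Dpp10 UMIs, and without the nucleus with the most UMIs in each group Dpp10 was 19.9-fold lower. With clusters made without the 8 genes, Kcnip4 was 50.5-fold higher and Dpp10 11.1-fold lower. This pair joins different regions, hippocampus and cortex. The 8 adult nuclei with cortical excitatory markers, at 13380 Dpp10 CPM, are not in it. The E14 levels of Kcnip4 and Kcnip1 in this pair came with thinned shares that overlapped those of microglia or macrophage-like nuclei.

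Between adult inhibitory-like and E14 Lhx6 interneuron-like nuclei, 3 genes were higher (16.9% of all genes) and 0 were lower (20.2%). The classes rest on different marker lists, general inhibitory genes in the adult and genes of the Lhx6 lineage at E14, so their makeup may differ. Of the 32 adult nuclei, 21 had more Adarb2 than Lhx6 UMIs, 4 had more Lhx6 and 7 had neither. Dpp10 was 3.34-fold (2.9 to 3.87), Kcnip1 2.89-fold (2.40 to 3.48) and Kcnip4 2.67-fold (2.34 to 3.06) higher. In the 4 adult nuclei with more Lhx6 UMIs, Kcnip4 lay the other way, at 69.2 CPM (29.9 to 136, on 8 UMIs) against 464. Dpp10 (2060 against 372) and Kcnip1 (441 against 239) stayed higher in them. For Kcnip4, 51.3% of the adult UMIs were in 1 nucleus, and without the nucleus with the most UMIs in each group its ratio was 1.55-fold, below the limit. With clusters made without the 8 genes it was 6.08-fold, and Dpp10 was 5.06-fold higher. Kcnd2 was at 477 against 925 CPM, a ratio of 0.516 (0.442 to 0.601). The Kcnd2 log2 ratio of -0.95 became -1.07 without the nucleus with the most UMIs and turned to 0.26 with clusters made without the 8 genes.

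**Figure D4:**
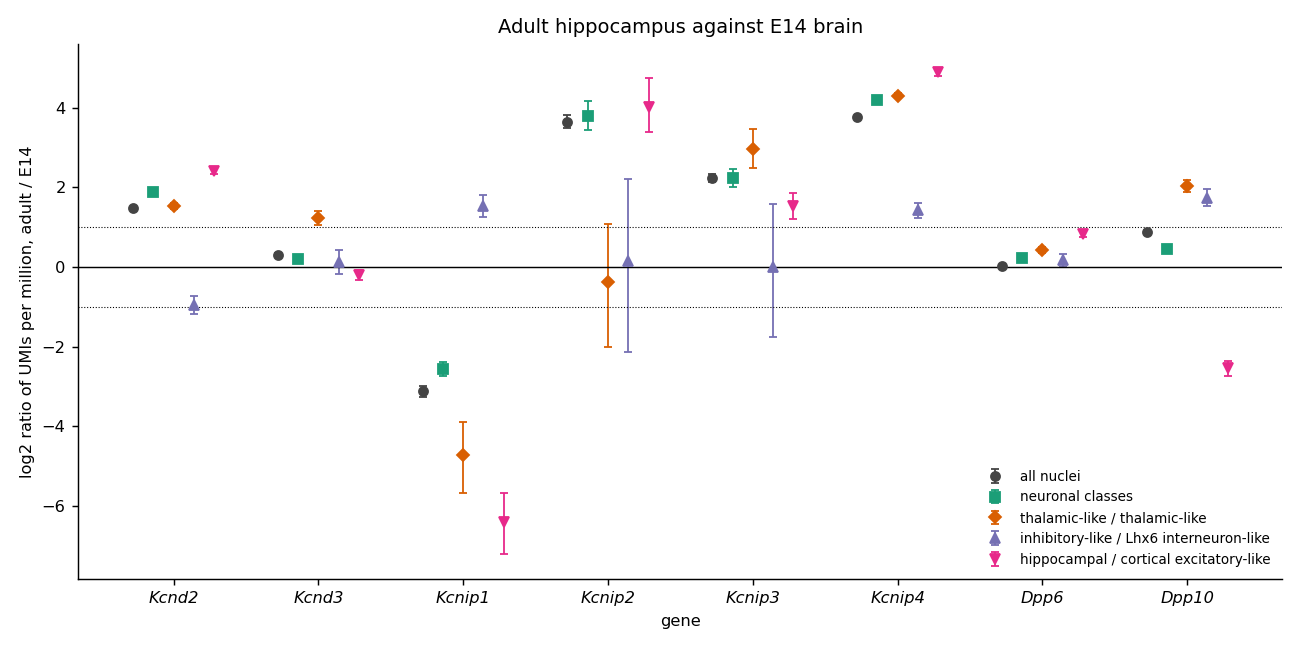
log2 ratio of CPM, adult over E14, for each gene in 5 comparisons (symbols), with 95% intervals for counting error and dotted lines at 2-fold. Kcnip4 lies above the upper line in all 5, though the inhibitory-like point falls to 0.64 without the nucleus with the most UMIs. In the 4 adult inhibitory-like nuclei with more Lhx6 than Adarb2 UMIs, Kcnip4 was at 69.2 CPM, below the 464 of E14 Lhx6 interneuron-like nuclei. Kcnip1 lies at -6.40 for excitatory nuclei and at 1.53 for inhibitory-like nuclei.

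Within the adult library, CA1-like nuclei were set against dentate granule-like nuclei, where 8.13% of all genes were at least 2-fold higher and 12.6% lower. Kcnd3 was 22.4-fold lower in CA1-like nuclei (17.2 to 29.7) and Kcnip3 2.40-fold lower (2.02 to 2.86). Kcnip1 passed the limit on 2 against 8 UMIs, below the 20 UMIs asked of other genes, with a ratio of 0.332 (0.0343 to 1.66) that was 0.516 with clusters made without the 8 genes. Dpp10 passed it in the other direction at 5.87-fold on the single nucleus named above, and turned to a log2 ratio of -0.82 without the nucleus with most UMIs in each class. Kcnd2 (1.32-fold), Kcnip4 (1.21-fold), Kcnip2 (0.971-fold) and Dpp6 (0.573-fold) differed by less than 2-fold.

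Inhibitory-like nuclei against hippocampal excitatory nuclei gave 2 higher genes (13.5% of all genes) and 4 lower (13.9%). Kcnip1 was 331-fold higher (201 to 586), on 318 against 16 UMIs, and Dpp10 29.1-fold higher (25.4 to 33.4), which became 101-fold without the nucleus with the most UMIs in each group, 242 of the 328 excitatory UMIs being in 1 nucleus. Kcnip2 was 14.6-fold lower on 4 UMIs (5.69 to 53.8), Kcnip4 9.32-fold (18.5-fold without the nucleus with the most UMIs in each group), Kcnd2 8.06-fold and Kcnip3 7.56-fold lower. The Kcnip3 value rested on 6 inhibitory-like UMIs (3.46 to 20.7) and was 3.31-fold with clusters made without the 8 genes, where Dpp10 was 74.7-fold higher. Kcnd3 (1.29-fold) and Dpp6 (1.02-fold) differed by less than 2-fold.

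Adult neurons as a whole were set against astrocyte-like, oligodendrocyte-like and oligodendrocyte precursor-like nuclei pooled. They were higher in 5 genes (16.8% of all genes) and lower in 0 (20.1%). The folds were 9.0 for Kcnip4, 5.70 for Kcnip2, 3.94 for Dpp6, 3.91 for Kcnd2 and 3.32 for Kcnd3. With each nucleus weighted alike they were 18.4 for Kcnip4, 6.72 for Dpp6 and 6.32 for Kcnd3. Oligodendrocyte precursor-like nuclei alone had 3791 Kcnd2 CPM (3536 to 4059), against 3530 for the adult neuron sum. Their intervals held the neuron value for Kcnd3 (308, 239 to 391, against 277) and Dpp6 (1288, 1142 to 1448, against 1182). Without the precursor-like nucleus with the most UMIs of each gene, the levels were 3587 for Kcnd2, 271 for Kcnd3 and 976 for Dpp6. The log2 ratio of Dpp10 was -0.27 and turned positive under 5 alternatives, reaching 1.64. The adult neurons include the 8 nuclei with cortical excitatory markers, at 13380 Dpp10 CPM against 409 for all adult neurons. In the E14 library, neurons exceeded radial glia-like nuclei in 3 genes (11.8% of all genes), Dpp10 (2.65-fold), Dpp6 (2.46-fold) and Kcnip2 (2.22-fold, on 67 against 8 UMIs, and below 2-fold with clusters), and were lower in Kcnip3 (2.38-fold, 1.88 to 3.00; 14.9%). Dpp10 was 4.11-fold higher with clusters. Kcnip4 (1.96-fold) and Kcnd3 (1.92-fold) were below 2-fold, but their log2 ratios reached 1.59 and 1.23 across the settings. The cluster that held most radial glia-like nuclei had 109 of the 273.

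The number of the 8 genes seen in a nucleus also differed. At 1000 UMIs per nucleus, the mean was 3.30 ± 1.20 genes (SD over 76 nuclei) in thalamic-like, 3.20 ± 0.906 (294) in dentate granule-like, 3.00 ± 1.34 (30) in oligodendrocyte precursor-like and 2.55 ± 0.854 (159) in CA1-like nuclei. Microglia-like nuclei had 0.881 ± 1.21 (42) and oligodendrocyte-like nuclei 0.253 ± 0.651 (241). The highest E14 mean was 2.36 ± 1.29 (22) in striatal-like nuclei.

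Other genes of the same families were taken as fixed lists. Of 7 other genes tied to A-type currents, 6 were at least 2-fold higher in the adult library over all nuclei and 0 lower, with a median log2 ratio of 2.56, where 17.2% of all genes were higher and 23.8% lower. Kcnab2, a beta subunit of Kv1 channels, was at 132 against 6.99 CPM (18.9-fold), and Kcna4, the pore gene of the Kv1.4 channel, at 61.8 against 6.38 (9.68-fold). Of 13 other voltage-gated potassium channel pore genes, 7 were higher and 0 lower, led by Kcna1 at 107 against 1.49 (71.4-fold). Of 7 measured relatives of the KChIPs, 5 were higher and 1 lower, with hippocalcin (Hpca) at 172 against 3.45 (50.0-fold) and Vsnl1 at 176 against 25.1 (7.01-fold). Of 6 dipeptidyl peptidase relatives, 0 were higher and 1 lower.

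Among the same lists, several genes separated CA1-like from dentate granule-like nuclei. Kcnc2, the Kv3.2 pore gene, was at 272 against 2.00 CPM (136-fold), Kcnq5, a pore gene of M-type channels, at 1014 against 17.2 (58.8-fold), and Kcnh7 at 2314 against 146 (15.8-fold). Kcnh1 was at 50.5 against 300.0 and the calcium sensor Ncald at 27.2 against 498 CPM. Of the 13 pore genes, 3 were higher and 4 lower, and of 6 measured KChIP relatives 2 were higher and 3 lower, beside 8.13% higher and 12.6% lower over all genes.

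Likeness was measured as Pearson's r of log2(CPM + 1) over the 25 classes of both libraries, among 14105 genes, as a description without a test, since classes of 1 library share its depth and preparation. The genes nearest to Kcnip1 were Dcx (r = 0.896), Plxna3 (0.894) and Frmd3 (0.892), and among those nearest to Kcnip2 were Icam5 (0.897) and Gm46123 (0.882). Kcnip4 was nearest to Gm12027 (0.903), Rnf112 (0.898) and Fstl4 (0.882), and Dpp6 to Gm1992 (0.941), Atcay (0.940) and Rit2 (0.940). For Kcnd2 they were Gm20754 (0.870), Sez6l (0.866) and Nell2 (0.844), for Kcnd3 Galnt14 (0.798), Pla2g4e (0.786) and Nmnat2 (0.767), and for Kcnip3 Nat8l (0.783), Slc25a23 (0.738) and Pmm1 (0.735). Among the 8 genes themselves the highest r was that of Kcnd2 with Dpp6 (0.748), followed by Kcnd2 with Kcnip4 (0.723). Kcnip1 and Kcnip2 had an r of -0.55. No likeness is given for Dpp10, whose sums in 4 adult classes came mostly from 1 nucleus each.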

How the data were processed

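The values are UMI counts that the authors deposited as gene-by-barcode matrices, aligned to mm10 with intronic reads included. File headers name Cell Ranger 6.1.2 (adult) and 7.0.1 (E14). CellBender is named for the embryo in the methods, but its matrix carries a Cell Ranger header and was treated as uncorrected. Barcodes under 500 UMIs or with 5% or more mitochondrial UMIs were dropped. The genes, lists and tests were chosen with earlier results of these data known.

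A marker held by only 1 list of its library counted as on in a nucleus with at least 1 UMI and at least 2 times the library's share. A nucleus took the class with at least 3 markers on and a lead of at least 2, a rule set after the data were seen. In all, 237 adult and 1147 E14 classed nuclei were at that lead. Each list had 8 markers. Shares of all genes called are over genes with at least 20 UMIs in both groups together, while the 8 genes were compared whatever their counts (3 of 72 values were under this limit), a count of 0 was taken as 3 counts, and a gene was called at 2-fold. Intervals are exact Poisson for levels, exact binomial (Clopper-Pearson) for shares and conditional binomial for ratios. UMIs of overlapping genes may be split: 4930469K13Rik lies within Kcnip1 on the same strand (28 adult and 773 E14 UMIs).

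Doublets were kept. Scrublet in scanpy 1.11.5 marked 6 adult and 4 E14 nuclei by its own threshold, judged not to have worked, so the 21 and 653 nuclei with the highest scores were left out as an alternative. Clusters made without the 8 genes (2000 variable genes, 30 components, 20 neighbours, Leiden resolution 0.8) gave 16 adult and 21 E14 clusters. Further alternatives left out, for each of the 8 genes, the nucleus with its most UMIs in each group (chosen after seeing the data), or concerned depth, mitochondrial and Malat1 limits, the marker minimum, weighting, scaling, the fold and the filter. Named genes were the 8 genes, list genes at least 2-fold different with at least 50 CPM in a group, and the 3 most like genes of each, of which some are not reported here. Lengths and positions are from GENCODE on GRCm38. On simulated counts for CA1-like against dentate granule-like nuclei (12865 genes), 200 of 200 genes changed 4-fold up or down were recovered and 93.0% of intervals held the true ratio. The simulated class sums were Poisson draws without the variation between nuclei of the real counts, so these figures check the calculation only.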

Additional observations from a re-analysis of the deposited data

Results flagged for a closer look

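The ratios of adult over E14 for Kcnip1 and Dpp10 had opposite signs in different pairs of classes. The log2 ratio of adult over E14 for Kcnip1 was -6.40 for hippocampal excitatory against cortical excitatory-like nuclei and -4.72 for thalamic-like nuclei, but 1.53 for inhibitory-like against Lhx6 interneuron-like nuclei. For Dpp10 it was -2.55 for the excitatory pair, but 2.03 for thalamic-like and 1.74 for inhibitory-like nuclei. The excitatory pair joins different regions, adult hippocampus and E14 cortex. The 8 adult nuclei with cortical excitatory markers, which are not in this pair, had 13380 Dpp10 CPM, against 250 in E14 cortical excitatory-like nuclei. With 1 library per age the difference between the pairs was not tested.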

How the results depend on the processing

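The 8 genes gave 720 ratios under the 10 alternatives that can change a ratio, of which 557 stayed within the counting interval of the reported value, 161 moved outside it and 2 values called at 2-fold changed sign. Both of the latter were Dpp10 in CA1-like against dentate granule-like nuclei, with log2 ratios of -1.18 with clusters made without the 8 genes and -0.82 without the nucleus with the most UMIs of each gene, a setting chosen after seeing the data. The count of higher genes in that comparison was then 0 under both, beside 8.28% and 8.34% of all genes. Counting values below 2-fold too, 14 whose interval excluded a ratio of 1 changed sign, 5 of them Dpp10 in adult neurons against glia (log2 -0.27, up to 1.64 at a maximum of 1% mitochondrial UMIs), and Kcnd2 in the inhibitory-like pair went from -0.95 to 0.26 with clusters. In all, 6 calls were lost: both of Dpp10 named above, Kcnip4 in the inhibitory-like pair (0.64 without the nucleus with the most UMIs), Kcnd2 over all nuclei (0.89 with each nucleus weighted alike), and with clusters Kcnip1 in CA1-like against dentate granule-like nuclei (-0.96) and Kcnip2 in E14 neurons against radial glia-like nuclei (0.97). With clusters, 2 genes were lower in the thalamic-like pair (23.2% of all genes). E14 neurons exceeded radial glia-like nuclei in 5 genes when scaled to the median gene (15.2% of all genes) and in 5 at 1.5-fold (19.1%), and the inhibitory-like pair had 1 lower gene at 1.5-fold (32.4%) and 1 without the nucleus with the most UMIs (24.5%, leaving out that nucleus for each gene). The other counts of called genes stayed within 1.5 times. Over both libraries together, the class with the highest level changed only for Dpp10, from inhibitory-like to endothelial-like nuclei at a maximum of 1% mitochondrial UMIs and to cortical excitatory-like with clusters. Within the E14 library, where no cluster was striatal-like, the highest clusters were forebrain GABAergic-like for Kcnd2 (1152 CPM) and Dpp10 (340), radial glia-like for Kcnip1 (334) and thalamic-like for Dpp6 (1430). Causes were not tested beyond the nuclei named. No paired analysis was possible because each group has 1 library. Depth limits Kcnip1 and Kcnip2, with 449 and 1336 UMIs in the adult library and 411 for Kcnip2 in the E14 library.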

Other observations

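The 458 adult nuclei without a class had levels of 2750 CPM for Kcnd2, 8428 for Kcnip4, 989 for Dpp6 and 1174 for Dpp10, against 2927, 9580, 995 and 586 over all adult nuclei. Of the 7059 E14 nuclei without a class, 942 had under 1000 UMIs, and the other 6117 had thinned shares of 44.7% for Kcnd2, 52.8% for Dpp6 and 19.5% for Kcnip1.

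The locus of Kcnip1 also holds the antisense genes Gm12119 and Gm12120, with 2 and 17 UMIs in the adult library and 258 and 909 in the E14 library. Within Kcnip4, on the opposite strand, 5730480H06Rik had 554 adult and 1491 E14 UMIs and Gm20700 had 296 and 228.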
